A study of Ascaris suum with 28 samples.

Results

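In the roundworm Ascaris suum, 80 of 15399 genes in the deposited table formed a group that was present in the oocyte. Their RNA was more abundant while the embryo cleaved from 10-26 to 32-64 cells than in the released zygote or the L1 larva. They were chosen from the values of 5 poly(A) RNA libraries. A gene needed an RPKM (a read count per gene length and library size) of 1 or more in the oocyte and a mean of 20 or more over the 96 h and 116 h libraries, called the peak level here. In addition, the peak level + 1 had to be at least 3 times the value + 1 in zygote region 4 and in L1. Of the 10057 genes at RPKM 1 or more in the oocyte, 3875 reached the peak level of 20, and of these 639 met the threshold over zygote region 4, 342 met the one over L1 and 80 met both. The other 3795 genes of that pool serve as the comparison below. All values of the oocyte, zygote region 4, 96 h, 116 h and L1 libraries are therefore descriptions of the choice and carry no test.

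The samples were worms of a North American wild population, without treatment. Zygotes were taken from 4 regions of the uterus, and those of region 4 (0 h) were then incubated at 30 °C to give the 24 h (1-cell), 46 h (1-2-cell), 64 h (2-4-cell), 96 h (10-26-cell), 116 h (32-64-cell) and day 7 (about 256-cell) embryos. L1 and L2 larvae were sampled too. Each of these stages and the oocyte had 1 poly(A) library, 13 in all. The oocyte library is titled oocyte with wall, and how much of its RNA came from the wall is not known. Embryos of days 0 (region 4 zygotes), 1 (1 cell), 3 (4-8 cells), 5 (32-64 cells) and 7 (about 256 cells) were also run on polysome gradients, with a free, a middle and a heavy fraction each, 15 columns in all. Each sample was a mass collection of embryos from many females, so its value is an average over many embryos and all their cells.

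An oocyte is loaded with maternal RNA and protein. In early development maternal RNAs are degraded and the embryo's own genes supply new RNA. A gene can take part in both supplies, and its RNA level alone does not tell the maternal copies from the new ones. In Ascaris the early cleavages are slow. During them the cells that will form the body discard part of their chromosomes, while the germ line keeps all of it. On a polysome gradient, RNAs loaded with many ribosomes travel into the heavy fraction and unloaded RNAs stay in the free one. The deposited table gives identifiers without gene names, so the roles and sequences of these genes are not described, and cell type or pathway markers could not be checked.

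The RPKM of a column summed to between 311996 and 453746 in the poly(A) libraries and to between 236086 and 918364 in the gradient, with the highest sum on day 5, and read depth is unknown. The oocyte and L2 libraries listed 23.1% and 29.8% of all genes at 0, against at most 17.0% in the other poly(A) libraries. The oocyte and 64 h columns were taken as poly(A) libraries because the table is named for mRNAs, which their column names alone do not settle.

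Over the 13 poly(A) libraries the group went through a low plateau, a climb from 24 h on and a decline after 116 h. Its median RPKM was 10.3 in the oocyte, between 10.3 and 11.9 in zygote regions 1 to 3, and 17.2 in region 4. It was 37.95 at 24 h, 48.9 at 46 h, 56.2 at 64 h, 83.8 at 96 h and 87.2 at 116 h. Later values were lower, with 48.5 on day 7, 21.4 in L1 and 5.3 in L2. The other 3795 genes of the pool had medians between 16.5 in L2 and 38.4 at 46 h, with 20.1 in the oocyte and 35.2 at 116 h. Together the 80 genes made up 0.278% of all RPKM in the oocyte, 0.555% in zygote region 4, 4.44% at 116 h and 1.05% in L1. In such bulk samples, RNA in fewer cells and less RNA per cell cannot be told apart.

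**Figure D1:**
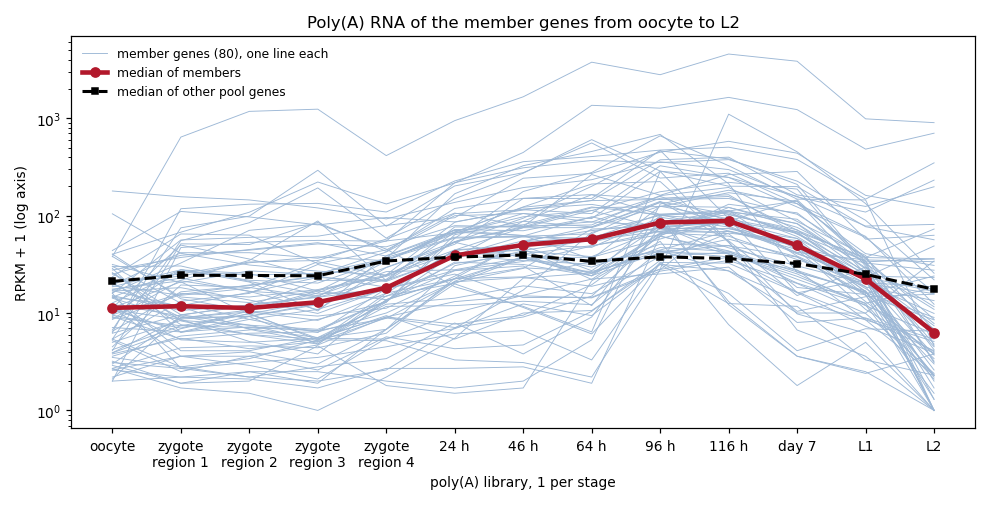
RPKM + 1 on a log axis (vertical) of the 80 genes in the 13 poly(A) libraries (horizontal, in order of development), 1 thin line per gene, with the median of the 80 genes (red circles) and of the other 3795 genes of the pool (black squares). The red median lies under the black one up to zygote region 4, above it from 24 h to day 7 and under it in L1 and L2. Values of the oocyte, zygote region 4, 96 h, 116 h and L1 chose the genes.

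The group spanned a wide range of abundance. The peak level had a median of 91.9 RPKM and ran from 21.1 to 3674, with 34 genes at 100 or more and 4 at 500 or more. The most abundant gene, ASU_04015, was at RPKM 36.9 in the oocyte, 638.7, 1173.8, 1236.5 and 411.9 in zygote regions 1 to 4, 943.1 at 24 h, 1657.1 at 46 h, 3756.1 at 64 h, 2794.2 at 96 h, 4554.5 at 116 h, 3842.1 on day 7, 983.7 in L1 and 898.9 in L2. It alone took 1.22% of all RPKM at 116 h, and it was already abundant in the uterus, where regions 2 and 3 exceeded region 4. ASU_07890, with a peak level of 1450, was at 39.1 in the oocyte, 130.6 in zygote region 4, 443.8 at 46 h, 1354.8 at 64 h, 1633.8 at 116 h, 1223.2 on day 7, 480.2 in L1 and 700.3 in L2. Without these 2 genes the group took 0.261% of the oocyte total and 2.78% of the 116 h total.

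The peak level was 4.34 times the zygote region 4 value in the median gene, on RPKM + 1, and 16 genes were 10 times or more above it. The largest ratio was 78.5, in ASU_03869, which stayed between RPKM 0.7 and 1.5 from the oocyte to 46 h and was at 4.3 at 64 h, 130.5 at 96 h, 181.3 at 116 h, 131.6 on day 7, 39.7 in L1 and 29.8 in L2. ASU_14057 followed, at 2.6 in the oocyte, 11.9 in zygote region 4, 57.4 at 24 h, 175.8 at 46 h, 276.2 at 64 h, 658 at 96 h, and 324.2 on reaching 116 h. Of these, ASU_03869 was flat until 46 h, while ASU_14057 was higher in each library from zygote region 1 to 96 h. At the other end, 35 genes were under 4 times above zygote region 4 and 52 under 4 times above L1, so much of the group lay near the thresholds.

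The thresholds cut through continuous ranges. ASU_07069 met the zygote threshold at a ratio of 3.00 and ASU_07267 at 3.04, while ASU_00496 and ASU_08407 missed it at 2.996 and 2.995. For L1, ASU_02244 was inside at 3.01 and ASU_07890 at 3.02, and ASU_11388 and ASU_06214 were outside at 2.996 and 2.994. ASU_03869 and ASU_06740 entered with an oocyte RPKM of 1, and ASU_01971 and ASU_05228 stayed out at 0.9, although ASU_01971 had a peak level of 519.4. On the peak level the nearest genes were ASU_02820 at 21.1 and ASU_05837 at 23.3 inside, and ASU_15085 at 19.8 and ASU_09953 at 18.4 outside.

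Oocyte levels varied between the genes. In the oocyte library 38 of the 80 genes were under RPKM 10, 17 were at 20 or more and 2 were at 100 or more. ASU_02244 had the highest oocyte value, 177.9, and was at 155.1, 143.8, 118.9 and 91.5 in zygote regions 1 to 4 before 135.6 at 24 h and 355.5 at 96 h. ASU_02704 was at 103.3 in the oocyte, 40, 30.1, 25.9 and 23.6 in regions 1 to 4, 43.3 at 24 h and 123.8 at 96 h. Both had lower values in each successive uterus region and higher values after release. Over the group, region 4 was above the oocyte in 56 of the 80 genes. It was at least 3-fold above it in 23 genes and at least 3-fold below it in 3 (ASU_02704, ASU_05837 and ASU_08102, named after their values were seen). These counts were not made for other genes. The median of the other pool genes was also higher in region 4, at RPKM 33.2 against 20.1 in the oocyte, beside 17.2 against 10.3 for the 80 genes.

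Between neighbouring libraries, 2-fold differences were frequent from oocyte to zygote region 1 and at the region 4, 24 h and 96 h libraries. In region 1, 21 of the 80 genes (26.2%) were at least 2-fold above the oocyte and 14 (17.5%) at least 2-fold below it, against 23.7% and 12.9% of the other pool genes. In region 4, 19 genes (23.8%) were at least 2-fold above region 3 and 5 below it, against 19.9% and 3.24%. At 24 h, 38 of the 80 genes (47.5%) were at least 2-fold above zygote region 4, against 10.8% of the other pool genes, and at 96 h 30 genes (37.5%) were at least 2-fold above 64 h, against 14.97%. The steps between 24 h and 64 h had fewer, 9 genes at 46 h over 24 h and 13 at 64 h over 46 h. The steps to region 1, region 4, 24 h and 96 h each contain a library that chose the genes, and the choice of low values in zygote region 4 and high ones at 96 h favours the counts at 24 h and 96 h. The 46 h and 64 h steps contain none but lie between region 4 and 96 h, so the required climb favours their counts too. There the shares were 11.2% and 16.2%, against 1.66% and 3.53% of the other pool genes.

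How far each gene had come at a given time was measured as the share of the distance from zygote region 4 to the peak level. The median share was 24.7% at 24 h, 39.4% at 46 h, 44.2% at 64 h and 97.7% at 96 h. A share of 50% was reached by 24 h in 16 genes, at 46 h in 14 more, at 64 h in 18, at 96 h in 30 and at 116 h in 2. For the same reason a gene could miss 50% at 96 h only if its 116 h value was far above its 96 h value. The split into 30 and 2 genes thus largely follows from the definition. These 5 sets had oocyte medians of 5.9, 6.55, 10.3, 14.4 and 10.1 RPKM in that order, so the genes that climbed late were not those with the least oocyte RNA. The 30 genes of 96 h showed little before it, with medians of 15.5 in zygote region 4, 23.8 at 24 h, 32.6 at 46 h, then 22.1 at 64 h, below the 92.5 of 96 h.

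The earliest and latest genes differed in shape as well as time. Among genes with a peak level of 50 or more, ASU_09092 and ASU_14848 had the largest share at 64 h, 294% and 266%, because their highest library was 64 h itself. ASU_09092 was at RPKM 4.4 in the oocyte, 54.3, 83.5, 191.4 and 57.7 in zygote regions 1 to 4, 148.2 at 24 h, 271.1 at 46 h, 601 at 64 h, 285.7 at 96 h and 199.3 at 116 h. ASU_14848 was at 5.7 in the oocyte, 73.9, 97.8, 291.1 and 76.7 in regions 1 to 4, 556.2 at 64 h and 241.7 at 96 h. Both stood out in region 3 and again at 64 h, as did ASU_05319, at 87.1 in region 3 against 20.5 in region 4 and at 263 at 64 h against 160.7 at 96 h. These 3 genes were singled out after their values were seen.

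At the late end, ASU_03884 was lower at 64 h than in zygote region 4. It was at RPKM 15.2 in the oocyte, 31.6, 69.6, 81 and 44.3 in regions 1 to 4, 17.6 at 24 h, 10.7 at 46 h, 5.4 at 64 h, 283.3 at 96 h, 52.9 at 116 h, 5.7 on day 7, 2.6 in L1 and 0 in L2. It thus had a high spell in the uterus, a low one through the first cleavages and a single high library at 96 h. ASU_04656 was at 4.4 in the oocyte, 4.2 in zygote region 4, 1.2 at 64 h, 26.8 at 96 h, 98.9 at 116 h and 43.9 on day 7.

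The highest poly(A) value lay at 96 h in 35 and at 116 h in 35, together 70 of the 80 genes. The choice favours this count, which was not made for other genes. For 8 genes the highest library was 64 h and for 2, ASU_03925 and ASU_05319, it was day 7. The 96 h and 116 h values were within 2-fold of each other, on RPKM + 1, in 66 genes. In 7 genes 96 h was at least 3-fold higher, led by ASU_01003, at RPKM 66.3 at 64 h, 99.3 at 96 h, 11.2 at 116 h and 2.6 on day 7, and ASU_02440, at 20.4, 53.4, 6.6 and 0.8 in the same libraries. In 2 genes 116 h was at least 3-fold higher, ASU_04656 and ASU_06651. ASU_06651 lay between RPKM 8.9 and 27.3 in all libraries up to 96 h and was at 1098.6 at 116 h, 450.6 on day 7, 131.9 in L1 and 24.6 in L2.

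Decline after the peak was uneven. On day 7, 14 of the 80 genes (17.5%) were at least 3-fold below their peak level, against 2.29% of the other pool genes, and 30 genes were less than 1.5-fold below it or above it. The day 7 library took no part in the choice, but the peak level did, and L1, the next stage, was required to be low, which favours this share. ASU_03884 had the lowest day 7 value relative to its peak, followed by ASU_00451, at RPKM 466.5 at 96 h, 92.4 at 116 h, 15.1 on day 7, 20.9 in L1 and 0 in L2. At the other end, ASU_03925 was at 64.3 at 96 h, 110.5 at 116 h and 140.3 on day 7, and ASU_05319 was at 160.7, 262.3 and 282.8. Of the 14 genes low on day 7, 13 had been higher at 96 h than at 116 h, against 3 of the 30 genes kept on day 7. The 96 h and 116 h values entered both sides of that split.

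In L2, which also took no part in the choice, 72 genes (90.0%) were at least 3-fold below the peak level, against 34.8% of the other pool genes. Because L1 was required to be low, a low L2 value is not independent of the choice. Of the 80 genes, 10 were listed at 0 in L2 (12.5%, against 2.64% of the other pool genes), in a library where 29.8% of all genes were. ASU_00451 and ASU_14823 were furthest below their peak, with ASU_14823 at RPKM 1.3 in L2 and 680.1 at 96 h. In 4 genes L2 was at least 2-fold above L1, namely ASU_01836 at 346.9 in L2 against 146.5 in L1, ASU_09045 at 33.2 against 9, ASU_02244 at 230.3 against 107.7, and ASU_08495.

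The gradient libraries gave the same genes in libraries that the choice did not use. For these libraries limma was fitted to log2(RPKM + 1) over 13771 genes, all 80 among them, with day and fraction as terms, and p-values were adjusted over all 13771 genes by the Benjamini-Hochberg method at a threshold of 0.05. The 3 fractions of a day come from 1 polysome sample, so the error of a difference between days is the spread between fractions, not between embryo collections. Days 0 and 5 are the stages of zygote region 4 and 116 h, and whether embryos were shared with those libraries is not given. The zygote region 4 and 116 h values chose the genes, so the choice favours a rise from day 0 to day 5.

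On day 5 the genes were far above days 0 and 1 in the gradient. Of the 80 genes, 73 (91.2%) rose between the mean of days 0 and 1 and day 5 and none fell, where 25.9% of all genes tested rose and 22.5% fell. The other pool genes rose in 46.9% of cases. The median log2 difference was 2.1 for the 80 genes, 0.88 for the other pool genes and 0.12 for all genes, with a median standard error of 0.40 for the 80 genes. The mean of the 3 fractions was highest on day 5 in 73 genes (91.2%), against 67.8% of the other pool genes, and on day 3 in the other 7. On days 0, 1, 3, 5 and 7 that mean had a median over the 80 genes of 10.9, 15.5, 30.7, 90.3 and 31.4 RPKM. Without the middle fraction 48 genes rose, and 11.7% of all genes, with a median of 1.96 for the 80 genes.

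ASU_03869 rose most, by 6.58 ± 0.43 log2 units (SE, limma adjusted p = 2.4e-09). Its RPKM in the free, middle and heavy fractions was 2.5, 1.3 and 0.2 (day 0), 4, 3.6 and 0.3 (day 1), 20.6, 22.7 and 25.9 (day 3), 184.1, 228.9 and 348.5 (day 5) and 98, 156 and 163.1 (day 7). No fraction of days 0 or 1 reached a fraction of day 3 or later, and the heavy fraction was the lowest before day 3 and the highest from day 3 on. ASU_06651 rose by 6.13 ± 0.39 (limma adjusted p = 1.48e-09), and its middle fraction was at 26.7, 26.5, 50.3, 4328.2 and 1343.9 on days 0, 1, 3, 5 and 7, as late as in the poly(A) libraries.

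The 7 genes that did not pass had differences between 0.67 and 1.47 log2 units. The smallest were in ASU_06396, at 0.67 ± 0.45 (limma adjusted p = 0.224), and ASU_09092, at 0.89 ± 0.52 (limma adjusted p = 0.165). In ASU_09092 the free fraction was at RPKM 15.6, 8.1, 7, 5.9 and 10.7 over the 5 days, and the middle fraction at 64.1, 59.9, 176.9, 242.4 and 132.7. The free and middle fractions of this gene thus went opposite ways between day 0 and day 5.

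**Figure D2:**
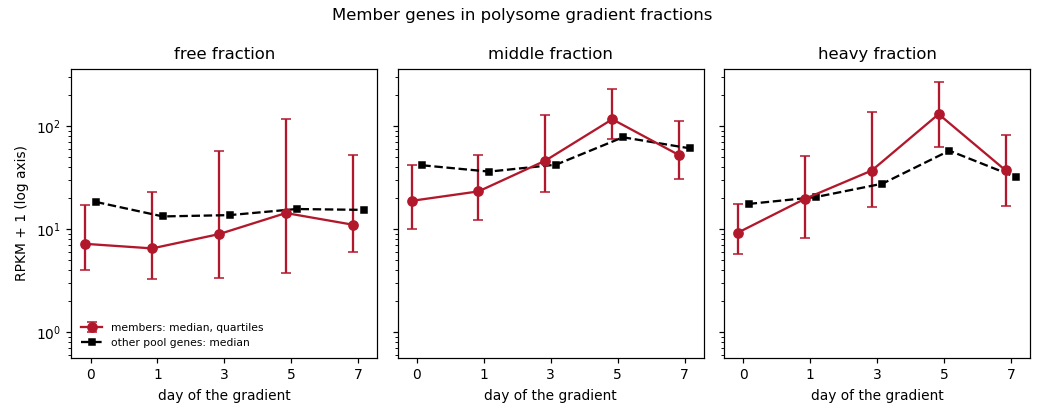
RPKM + 1 on a log axis (vertical) in the free, middle and heavy gradient fractions by day (horizontal), as the median and quartiles of the 80 genes (red circles with bars) and the median of the other 3795 genes of the pool (black squares). On days 0, 1, 3, 5 and 7 the heavy median of the 80 genes was 8.25, 18.7, 36.1, 130.5 and 36.4 RPKM, under the other genes on days 0 and 1 and above them from day 3 on.

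By fraction, 2-fold higher values from day 0 to day 1, both before the first cleavage, were most frequent in the heavy fraction. The heavy value was at least 2-fold higher in 42 genes (52.5%), the middle value in 9 (11.25%) and the free value in 8 (10.0%). Among the other pool genes these shares were 20.2%, 5.2% and 2.9%, and 7.14% were at least 2-fold lower in the heavy fraction. The median log2 difference of the 80 genes between these days was 1.05 in the heavy, 0.24 in the middle and -0.19 in the free fraction. For the other pool genes it was 0.26, -0.18 and -0.44, and for all genes 0.0, -0.09 and -0.22. Between days 3 and 5 the medians of the 80 genes were 1.42 in the heavy, 1.42 in the middle and 0.52 in the free fraction. The other pool genes had 1.05, 0.91 and 0.16 for this step, and all genes 0.60, 0.39 and -0.24. The RPKM sum of the heavy column was 373486 on day 3 and 631311 on day 5. As a share of these sums the 80 genes took 3.69% and 3.98%. Each of these steps compares single libraries and has no test.

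**Figure D3:**
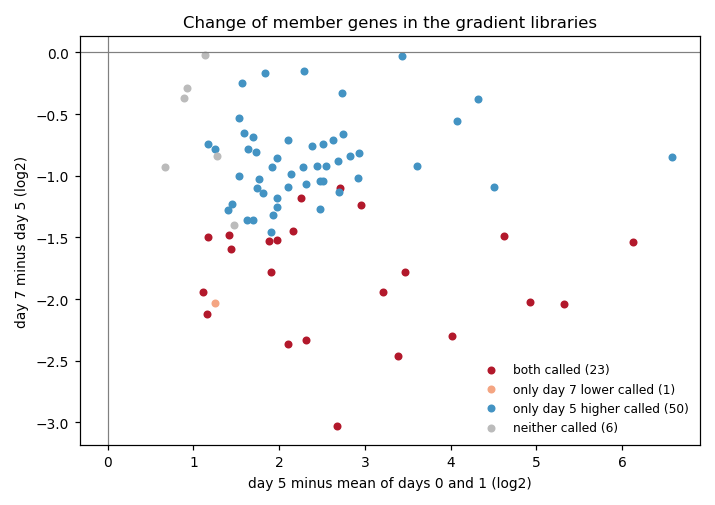
Fitted log2 difference of day 5 over the mean of days 0 and 1 (horizontal) and of day 7 over day 5 (vertical) in the gradient libraries, 1 point per gene, coloured by which differences passed an adjusted p of 0.05. All 80 points lie right of 0 and below 0, 23 passed both tests, 50 only the first, 1 only the second and 6 neither.

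After day 5 the gradient values went down. Of the 80 genes, 24 (30.0%) fell between day 5 and day 7 and none rose, where 4.75% of all genes tested fell and 12.8% rose. The other pool genes fell in 7.77% of cases. The median log2 difference was -1.06 for the 80 genes, -0.47 for the other pool genes and -0.13 for all genes. Without the middle fraction 4 of the 80 genes and 0.414% of all genes were called, while the median of the 80 genes was -1.02. This difference and the one before it share the day 5 columns and are not independent. The required high level at 96 h and 116 h and lower level in L1 also favour a fall here.

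The steepest drop was that of ASU_14823, whose log2 difference was -3.03 ± 0.37 (limma adjusted p = 9.31e-06). Its RPKM in the free, middle and heavy fractions was 494.3, 499.6 and 330.4 on day 5 and 55.6, 55.2 and 46.2 on day 7. All 3 fractions moved together, and the poly(A) value was 680.1 at 96 h and 211.3 at 116 h. ASU_14824, with the next identifier, came second with -2.46 ± 0.37 (limma adjusted p = 8.82e-05), and it was at 138.9 at 96 h, 54.1 at 116 h and 14.1 on day 7. How reads were shared between similar genes is not known here, so the 2 values may not be independent. The least movement was in ASU_14153, at -0.02 ± 0.59 (limma adjusted p = 0.996), and ASU_12551, at -0.03 ± 0.58 (limma adjusted p = 0.992).

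Most of the genes were higher in the heavy than the free fraction. On each day the heavy value was below the middle one in more of them than above it, as among all genes tested. Over the 5 days, the heavy fraction exceeded the free one in 50 of the 80 genes (62.5%) and was below it in 10 (12.5%) by the limma call, where 29.8% of all genes tested were higher and 19.6% lower. Among the other pool genes, which have the same floor on the peak level, 53.3% were higher and 14.7% lower. The median log2 difference was 1.38 for the 80 genes, 0.96 for the other pool genes and 0.12 for all genes. The share of the 80 genes was thus near that of the other pool genes. The heavy value was below the middle one in 78, 49, 48, 47 and 60 of the 80 genes on days 0, 1, 3, 5 and 7. The highest of all 15 columns was the day 5 middle fraction in 38 genes and the day 5 heavy fraction in 29. These are unscaled RPKM, and the 2 columns summed to 918364 and 631311. As shares of the column sums the 80 genes took 0.57%, 0.84%, 2.23%, 3.54% and 2.13% of the middle columns on these 5 days. Of the heavy columns they took more, 0.63%, 1.99%, 3.69%, 3.98% and 2.25%. The error here is the variation between days, not between repeated gradients, and without the day term 32 genes were called higher and 0 lower, where 17.6% and 4.42% of all genes were. After median-ratio scaling of the fractions 41 genes were higher and 17 lower, where 22.1% and 38.5% of all genes were, with medians of 0.70 for the 80 genes and -0.34 for all genes.

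The strongest contrast was in ASU_07267, where heavy exceeded free by 3.56 ± 0.44 on the log2 scale (limma adjusted p = 1.06e-05). Its RPKM in the free fraction was 3.9, 1.6, 1.3, 2.1 and 3.3 on days 0, 1, 3, 5 and 7, and in the heavy fraction 15.5, 36, 35.1, 146.3 and 26.8. The free value never reached the lowest heavy one. ASU_01979 was next, with a difference of 3.40 ± 0.40 (limma adjusted p = 7.7e-06). ASU_07890 went the other way by -2.03 ± 0.31 (limma adjusted p = 4.62e-05), with free values of 193.7, 309.6, 1183.3, 6133.1 and 3264.7 and heavy values of 58.9, 74.1, 460.6, 698.1 and 854.2. ASU_06907 had -1.45 ± 0.30 (limma adjusted p = 0.000674). Without the day term neither of these genes passed, with limma adjusted p = 0.219 for ASU_07890 and 0.202 for ASU_06907.

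The 2 most abundant genes thus sat at different places in the gradient. ASU_04015 was at RPKM 2564.8 free, 5145.2 middle and 7128.9 heavy on day 5, and ASU_07890 at 6133.1 free, 7804 middle and 698.1 heavy. On day 0 ASU_04015 too had been lowest in the heavy fraction, at 281 against 524.2 free, and from day 1 on it was highest there. Its heavy minus free difference over the 5 days was 1.15 ± 0.40 (limma adjusted p = 0.0234).

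**Figure D4:**
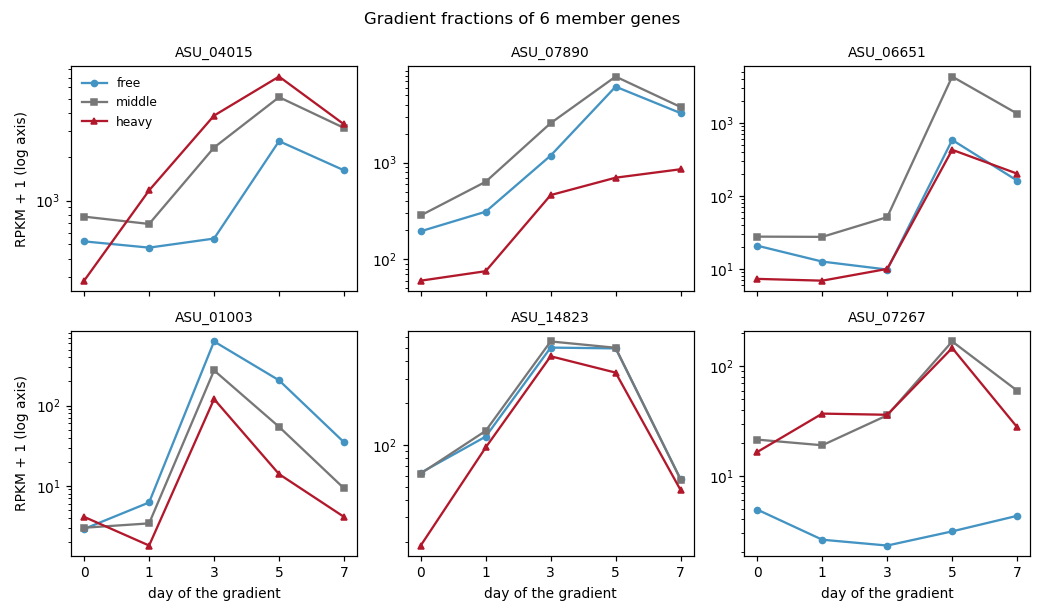
RPKM + 1 on a log axis (vertical) of 6 genes in the free, middle and heavy gradient fractions by day (horizontal), 1 library per point. ASU_04015 and ASU_07267 lie highest in the heavy or middle fraction, ASU_07890 lowest in the heavy fraction on all 5 days, ASU_06651 highest in the middle fraction with its increase at day 5, ASU_01003 highest in the free fraction from day 1 on, and ASU_14823 at similar levels in all 3 fractions from day 1 on.

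Without scaling between columns, the median position shifted toward the heavy fraction up to day 5 and back on day 7, also among the other pool genes. After quantile normalization or median-ratio scaling the median slope over the days was 0.01 or -0.04 for the 80 genes, as given below. On days 0, 1, 3, 5 and 7 the median heavy minus free difference of the 80 genes was 0.12, 1.25, 2.03, 2.62 and 1.28. For the other pool genes it was -0.14, 0.60, 1.10, 1.95 and 1.14, and for all genes tested -0.26, -0.18, -0.01, 0.72 and 0.68. The 80 genes lay above all genes by 0.39, 1.43, 2.04, 1.89 and 0.60, so the distance was widest on days 3 and 5. These are medians of 1 gradient per day.

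As a slope per day over the 5 heavy minus free differences, with 3 residual degrees of freedom, limma called none of the 80 genes, and 0% of all 13771 genes in either direction. At an unadjusted p under 0.05, 16 of the 80 genes had a positive and 1 a negative slope, and of all genes 3624 and 147. The median slope was 0.18 log2 units per day for the 80 genes, 0.20 for the other pool genes and 0.17 for all genes. Quantile normalization gave 0.01 for the 80 genes and 0.00 for all genes, and median-ratio scaling gave -0.04 and 0.02. With a filter of RPKM 10 in 2 columns 5 of the 80 genes had a called positive slope and 1 a called negative one, where 7.41% and 0.156% of all genes tested had. The largest slope was 0.58 ± 0.20 in ASU_05160 (limma adjusted p = 0.107), followed by ASU_12768 at 0.50 ± 0.17 (limma adjusted p = 0.102). The lowest was -0.49 ± 0.15 in ASU_01003 (limma adjusted p = 0.0873), whose free fraction was at RPKM 1.9, 5.2, 629.8, 205.8 and 33.9 over the 5 days and whose heavy fraction was at 3.1, 0.8, 119.6, 13 and 3.1. ASU_07890 came next at -0.08 ± 0.13 (limma adjusted p = 0.674).

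**Figure D5:**
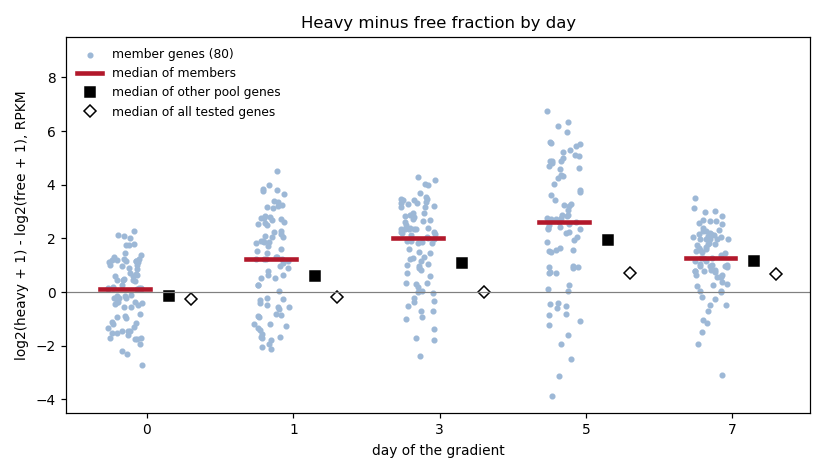
Difference of log2(RPKM + 1) between the heavy and the free fraction (vertical) by day (horizontal), 1 point per gene, with the median of the 80 genes (red bar), of the other pool genes (filled square) and of all 13771 tested genes (open diamond). The red bar lies above both others on all 5 days, and the spread among the 80 genes is widest on day 5.

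Position varied widely within the group. The fitted heavy minus free difference ran from -2.13 in ASU_01003 to 3.56 in ASU_07267, with quartiles of 0.16 and 2.63. Of the 80 genes, 39 (48.8%) were above 0 on all 5 days, against 42.1% of the other pool genes, and 8 (10.0%) were below 0 on all 5 days, against 12.4%. By time of climb, 14 of the 16 genes that had covered 50% of the distance by 24 h passed the test for heavy over free, 9 of the 14 of 46 h, 14 of the 18 of 64 h, 13 of the 30 of 96 h and none of the 2 of 116 h. Their median differences on day 0 were 1.15, -0.15, 0.12, -0.02 and -1.62 in the same order, on day 1 they were 2.53, 1.41, 1.22, 0.02 and -1.27, and on day 5 they were 3.08, 2.33, 2.68, 2.5 and -0.76. The median of the genes of 24 h was above 0 from day 0 on, and that of the genes of 96 h was near 0 on days 0 and 1. Differences between these sets were not tested.

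The position was also set against the level kept on day 7. The 30 genes kept on day 7 had a median heavy minus free difference of 2.09 on day 1 and 3.51 on day 5, and 19 of them were above 0 on all 5 days. The 14 genes at least 3-fold below their peak on day 7 had medians of -0.44 and 0.50, and 1 of them was above 0 on all days. These sets were formed after the values were seen, from poly(A) libraries, and their differences were not tested.

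On day 5 the mean of the 3 fractions and the 116 h poly(A) value of the same stage were close in RPKM for most of the genes. The scales differ, as RPKM summed to 898668, 918364 and 631311 in the day 5 free, middle and heavy columns and to 373500 at 116 h. As shares of these sums the 80 genes made up 1.91%, 3.54% and 3.98% on day 5 and 4.44% at 116 h. The median log2 ratio of the first over the second was 0.28 for the 80 genes, 0.58 for the other pool genes and 0.52 for all genes tested. It was highest in ASU_01003, at 2.91, and ASU_02440, at 1.58, whose poly(A) values were higher at 96 h than at 116 h. ASU_01003 had a fraction mean of RPKM 341.0 on day 3 and 90.7 on day 5. It was lowest in ASU_12768, at RPKM 2, 26 and 18.9 in the free, middle and heavy fractions against 120.2 in the poly(A) library (-2.87), and in ASU_15237, at 0.9, 25.5 and 16.8 against 65.1 (-2.1). Since a high 116 h value helped to choose the genes, the choice may lower this ratio.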

How the data were processed

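The authors deposited RPKM values with 1 decimal for 15399 identifiers in 28 columns, 13 of poly(A) RNA and 15 of gradient fractions. The submitters' processing notes name Bowtie 0.12.7, and genome build, annotation and counter were not given in the sources used here. Columns were matched to 18 of 28 samples by name, the oocyte and 64 h columns by their stage and the table's name, and 10 samples were not analysed here. Sequencing depth is unknown, so no counting interval is given. The genes, lists and tests were chosen with earlier results of these data known.

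The limma package 3.58.1 (R 4.3.3) was fitted to log2(RPKM + 1), which understates changes of low genes, with an intensity trend. Genes needed RPKM 1 in at least 2 of the 15 fraction columns, and all 80 passed. Fits had day and fraction as terms (8 residual degrees of freedom), or a slope over 5 daily differences (3). The fits were also run on simulated data with known changes, and the outcome is not reported here. That simulation drew independent noise around 1 mean per gene. It therefore cannot show how the fits behave when the 3 fractions of a day come from 1 sample. Poly(A) stages had 1 library each and were not tested. Without gene names, at most 2 genes at each end of a quantity were named, by rule: peak level, oocyte value, ratio to zygote region 4, share at 64 h, 96 h over 116 h, day 7 and L2 over peak, the 4 gradient differences (for heavy minus free, the same sign on all 5 days and a call), day 5 over 116 h and distance to a threshold. Genes named for a small count or a shared pattern were chosen after their values were seen.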

Additional observations from a re-analysis of the deposited data

How the results depend on the processing

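Limits are those of single libraries, unknown depth and scaling between fractions. Leaving out 1 fraction at a time gave between 48 and 80 genes higher on day 5 than on days 0 and 1 (73 with all fractions), lowest without the middle fraction, and between 4 and 36 genes lower on day 7 than on day 5 (24 with all fractions), highest without the free fraction. Leaving out 1 day at a time gave between 43 and 55 genes higher and between 8 and 10 lower in the heavy fraction. Without the day term these counts were 32 and 0 (17.6% and 4.42% of all genes), and with median-ratio scaling 17 were lower (38.5% of all genes). With a filter of RPKM 10, which tested 9639 genes, 5 genes had a called positive slope of heavy minus free and 1 a called negative slope, where 7.41% and 0.156% of all genes had; the cause was not tested. The other alternatives, pseudocounts of 0.1 and 5, no filter, quantile normalization and no intensity trend, kept these counts within 1.5 times. The poly(A) counts of 14 (day 7), 38 (64 h) and 72 (L2) genes ran over 12 to 16, 36 to 43 and 56 to 72 under 2 scalings and with either peak library alone. For genes named by the smallest differences the sign turned. Leaving out 1 fraction, ASU_06396 ran between -0.17 (without the middle) and 1.43 (without the free fraction) for day 5. For day 7 minus day 5, ASU_14153 had 0.15 with a pseudocount of 0.1, 0.09 after quantile normalization, 0.19 after median-ratio scaling, and between -0.75 (without the free) and 0.52 (without the heavy fraction) with 1 fraction left out, and ASU_12551 had 0.06, 0.02, 0.14 and between -0.82 and 0.59. No paired analysis was possible because each group had 1 sample and the labels number no replicates; the day term joins the fractions of a sample, and the counts without it are given above.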
